A study of Mus musculus with 16 samples.

Results

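CA1 pyramidal neurons are the excitatory neurons (ENs) of the CA1 field, the main output of the hippocampus. Here they were taken as nuclei, by a fixed rule on the RNA of each barcode. A nucleus was a member if it held 1000 to 7000 genes and at most 5% mitochondrial UMIs (unique molecular identifiers, 1 per captured RNA molecule), at least 4 of the 7 marker genes *Fibcd1*, *Gm10754*, *4921539H07Rik*, *Gm2115*, *1700007F19Rik*, *Galntl6* and *Iqgap2*, and no UMI of *Prox1*, *Gad1*, *Gad2*, *Mog*, *Pdgfra*, *Csf1r* or *Fn1*, which mark granule cells, interneurons, glia and vascular cells. The rule found 14336 nuclei among 155084 deposited barcodes, of which 129802 were within the limits on genes and mitochondrial UMIs. The 14 genes of the rule describe how the nuclei were chosen, and no test result is given for them. Those that passed the filter on low counts stayed in the fits and in the counts of genes.

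The study asked how repeated activation of STING, an innate immune adaptor, changes hippocampal cells, and whether the receptor for type I interferon is needed for this. Single-nucleus RNA-seq was made from the hippocampi of 16 male mice, 1 library each, in 4 groups of 4. Wild-type (WT) mice of the C57BL/6 strain, aged 2 months and 23 days, were given vehicle or DMXAA, an agonist of mouse STING, by repeated intraperitoneal injection. *Ifnar1*-/- mice, aged 3 months and 3 days, were given vehicle or DMXAA in the same way and lacked the receptor subunit in every cell of the body. Genotype coincided with age, and these cannot be told apart.

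Type I interferon binds a receptor made of IFNAR1 and IFNAR2. The kinases JAK1 and TYK2 then act on transcription factors such as STAT2, which join IRF9 and bind interferon-stimulated response elements (ISREs) in the promoters of interferon-stimulated genes (ISGs). The ISG products sense viral RNA, block viral replication, edit or degrade RNA, and load peptides onto MHC class I molecules; neurons carry the receptor and can mount this response.

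The 6 response genes below are shown with the ISRE core because 30 bases of their promoters hold it. The motif searched was GAAA, any 2 bases and GAAA, on both strands, in the window from 250 bases before to 50 bases after the annotated start in RefSeq (GRCm38.p6). Of the 15 genes that rose with DMXAA in CA1 nuclei of WT mice (given further on), 13 had an entry and 6 of these held the motif, against 3.99% of 27025 gene symbols with a promoter entry. Capitals mark the motif, written as TTTC with TTTC where it lies on the other strand, and each sequence reads 5′ to 3′ on the strand of its gene.
*Ddx60*, chr8:61928024-61928053, plus strand: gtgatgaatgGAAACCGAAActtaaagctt
*Ddx60*, chr8:61928058-61928087, plus strand: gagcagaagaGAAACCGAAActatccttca
*Ifit1*, chr19:34640775-34640804, plus strand: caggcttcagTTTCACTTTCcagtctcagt
*Ifit1*, chr19:34640794-34640823, plus strand: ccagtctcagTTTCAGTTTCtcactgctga
*Ifi203*, chr1:173942508-173942537, minus strand: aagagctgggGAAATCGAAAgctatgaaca
*Eif2ak2*, chr17:78882535-78882564, minus strand: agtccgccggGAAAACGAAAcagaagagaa
*Trim34a*, chr7:104244457-104244486, plus strand: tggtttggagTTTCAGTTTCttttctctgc
*Ifih1*, chr2:62646206-62646235, minus strand: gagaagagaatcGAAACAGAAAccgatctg

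The same core stands 2 times before the start of *Ddx60* and 2 times before that of *Ifit1*. In *Ddx60* the matches begin 53 and 19 bases before the start, in *Ifit1* 104 and 85 bases before it, and in *Ifi203* 35 bases before it. In *Trim34a*, *Eif2ak2* and *Ifih1* the matches lie 10, 18 and 32 bases after the start. With the last base left free 7 of the 13 genes had a match, against 9.76% of symbols. A match is a description of letters and not a measured binding site. The 250 bases before the start of *Ddx60*, chr8:61927837-61928086, plus strand, show both matches in place: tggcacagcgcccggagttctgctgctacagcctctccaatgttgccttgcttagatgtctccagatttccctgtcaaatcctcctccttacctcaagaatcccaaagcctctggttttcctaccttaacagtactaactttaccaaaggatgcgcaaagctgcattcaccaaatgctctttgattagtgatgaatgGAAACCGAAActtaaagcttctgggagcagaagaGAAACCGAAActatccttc

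Each library held 553 to 1133 CA1-rule nuclei with 11329403 to 18892411 UMIs. The median nucleus held 11813 to 14733.5 UMIs in WT and 16824 to 22699 in *Ifnar1*-/- libraries, and 3471 to 4471 genes. Of 14312 distinct barcode sequences, 24 occurred in 2 libraries, and no pair of libraries shared more than 2. One library stood apart from its group. In WT DMXAA replicate 3 the nuclear RNA *Malat1* took 2.47% of CA1 UMIs, against 8.31 to 11.5% in the other WT DMXAA libraries, and the genes in the longest of 5 equal classes of genomic span took 73.9% of UMIs against 57.3 to 59.9%. The *Ifnar1*-/- libraries had shares of 1.09 to 3.79% and 71.0 to 78.2%, so that on both measures this WT library lay among the *Ifnar1*-/- libraries. For DMXAA in the whole set of nuclei, counts and values without it are given beside many of the results that it changed. Gene lists compared between the vehicle groups are given only from the fit that holds it.

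The label of the nuclei was checked against genes the rule had not used. *Mpped1* and *Wfs1*, known from CA1 neurons, were present, but the marker check split the members. A list of 7 genes known from CA3, the neighbouring field (*Cpne4*, *Nectin3*, *Galnt3*, *Iyd*, *Grik4*, *Spock1* and *Cdh24*), was summed per nucleus and scaled to 10000 UMIs. It was over 20 UMIs in 3408 of the 14336 nuclei and at most 20 in 10928, with few nuclei near that value: 259 nuclei lay between 15 and 20 and 197 between 20 and 25, whereas 1552 lay between 40 and 60.

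In the nuclei over 20, the CA1 markers were low. In the marker checks and in sums over lists, levels are UMIs per 1000000 UMIs (CPM). Levels of single genes by library or group, given further on, are CPM scaled by the TMM factors of the test. *Mpped1* had 10.9 CPM over 20 and 203 CPM at or under 20. *Wfs1* had 2.02 and 23.3 CPM and *Pou3f1* 1.15 and 25.03 CPM. Of the rule's own markers, *Fibcd1* had 3.90 and 56.98 CPM. Of 4 further genes known from CA3 that did not make the split, *Csf2rb2* (4.94 against 0.195 CPM), *Chgb* (134 against 43.5 CPM) and *Slc9a4* (33.2 against 18.9 CPM) were higher over 20, and *Tyro3* was lower (8.48 against 36.6 CPM). *Slc17a7*, the vesicular glutamate transporter of ENs, was near in both (244 and 201 CPM). The 10928 nuclei at or under 20 thus had the higher level of CA1 markers that the rule did not use, and the other 3408 that of 3 of the 4 further CA3 markers. The whole set is called CA1-rule nuclei here, and the set with at most 20 UMIs of the CA3 list is given beside it. The share over 20 was 21.5% ± 3.08 (SD, n = 4) in WT vehicle and 24.6% ± 2.14 in WT DMXAA libraries (exact permutation test, two-sided, p = 0.171, adjusted over both genotypes 0.343). The share in *Ifnar1*-/- libraries was 24.1% ± 2.86 with vehicle and 24.8% ± 2.28 with DMXAA (exact permutation p = 0.657).

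**Figure D1:**
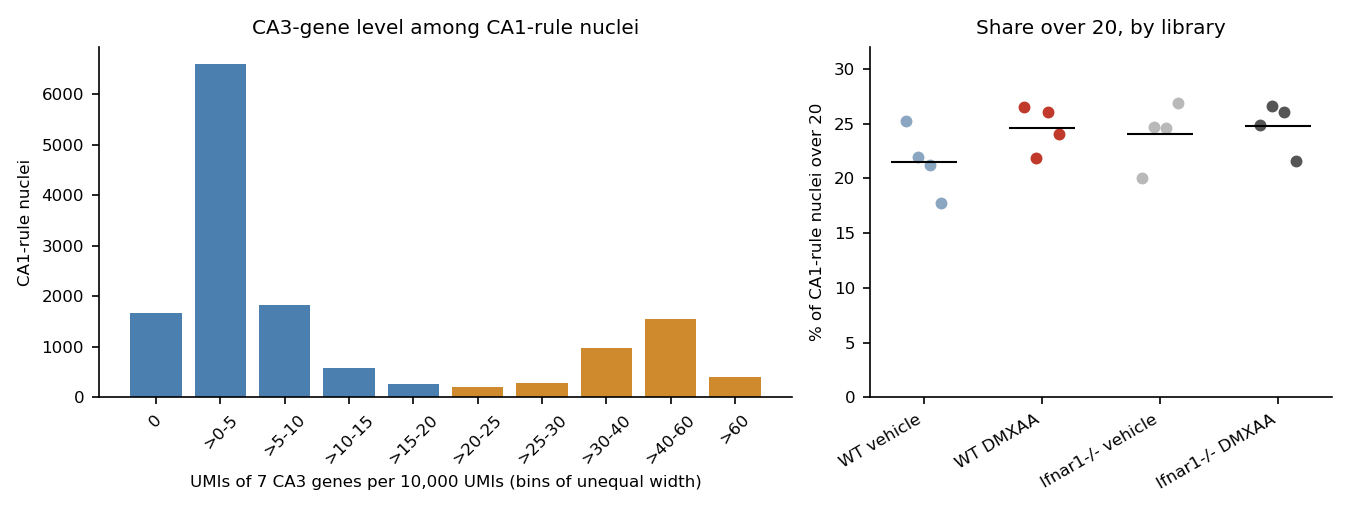
Left, number of CA1-rule nuclei (vertical axis) by summed UMIs of 7 CA3 genes per 10000 UMIs (horizontal axis), blue at or under 20 and orange over 20; right, the share of nuclei over 20 (percent) in each of the 16 libraries by group, with the group mean as a line. The left panel has a low point near 20, with 259 nuclei at 15 to 20 and 197 at 20 to 25, and the shares on the right overlap between vehicle and DMXAA in both genotypes.

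The number of markers a nucleus held also moved with its identity. Among nuclei without the barred genes, 5233 held exactly 4 markers, just inside the rule, and 5018 held 3, just outside it. *Man1a* was at 386 CPM in the former and 200 CPM in the latter, and rose to 618 CPM in the 1491 nuclei with all 7 markers. *Wfs1* did not follow the count at that edge: it was at 11.1 CPM with 3 markers, 7.20 CPM with 4 and 35.9 CPM with 7.

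Markers of microglia were low in the CA1-rule nuclei. Of the 9 microglial markers listed, all were detected, but the defining ones were near 0: *Siglech* was at 0.393 CPM, *Tmem119* at 0.152 CPM and *Ctss* at 0.992 CPM, where nuclei chosen as microglia had 943, 166 and 778 CPM. *P2ry12* (27.5 CPM) was the most counted of them. The list's sum ranged from 53.9 to 66.3 CPM in WT vehicle, 26.3 to 101 CPM in WT DMXAA, 18.9 to 29.1 CPM in *Ifnar1*-/- vehicle and 27.9 to 39.8 CPM in *Ifnar1*-/- DMXAA libraries. The 7 astrocyte markers summed to 222 to 257, 199 to 229, 264 to 297 and 227 to 295 CPM in these groups. Over all libraries their sum was 251 CPM, with 174 CPM at or under 20 and 426 CPM over 20. It was 164 CPM in nuclei chosen as interneurons and 874 CPM in those chosen as dentate. Lists of oligodendrocyte, subiculum, dentate and interneuron markers summed to 118, 126, 89.9 and 40.9 CPM in CA1-rule nuclei.

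*Ifnar1*, the targeted gene (ENSMUSG00000022967, chromosome 16, 91485238 to 91507441 on GRCm38, GENCODE M21), was read in every library. Its level was 14.8, 14.7, 13.8 and 16.4 CPM in WT vehicle replicates 1 to 4 and 13.7, 13.5, 15.1 and 13.3 CPM in WT DMXAA replicates. In *Ifnar1*-/- mice it was 9.30, 9.17, 10.3 and 7.63 CPM with vehicle and 8.68, 9.93, 8.99 and 9.79 CPM with DMXAA. Every *Ifnar1*-/- library lay under every WT library, and the *Ifnar1*-/- mean of TMM-scaled CPM was 64.0% of the WT mean. The log2 fold change between vehicle groups was -0.71 ± 0.105 SE (edgeR quasi-likelihood adjusted p = 0.00143). Reads of a 3′ library do not show whether the remaining transcript lacks its deleted part. *Ifnar2*, the partner subunit, had mean levels of 14.3 and 15.2 CPM in WT and 14.9 and 14.8 CPM in *Ifnar1*-/- mice with vehicle and DMXAA.

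In WT mice, DMXAA was followed by a rise of ISGs in the CA1-rule nuclei. Of 16121 genes tested, 15 rose (0.093%) and 1 fell (0.0062%). A gene was called differentially expressed (a DEG) where the adjusted p was under 0.05 and its log2 fold change beyond 0.1 in either direction. The risen genes named here were *Irf9*, *Ddx60*, *Eif2ak2*, *Ifih1*, *Xaf1*, *Oasl2*, *Oas2*, *Ifit1*, *Trim34a*, *Rnf213*, *Lgals3bp*, *Ifi203*, *Tapbp* and *Gm20559*. *Ptn* fell. No DMXAA library of WT mice overlapped a WT vehicle library for any of the 16 genes, and without WT DMXAA replicate 3 all 16 were still called among 125 DEGs (66 higher, 59 lower, 0.764% of 16364 genes).

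*Irf9*, the DNA-binding partner of STAT2, is given first. It was at 5.97, 7.97, 8.34 and 8.49 CPM with vehicle and 23.8, 15.8, 12.8 and 13.96 CPM with DMXAA in WT mice (log2 fold change 1.10 ± 0.179, adjusted p = 0.0188). All 4 WT DMXAA libraries were above the other 12, with replicate 1 the highest, and *Ifnar1*-/- libraries lay at 6.29 to 7.69 CPM with vehicle and 6.63 to 8.93 CPM with DMXAA. *Stat2* went from 27.9 to 32.5 CPM with vehicle to 38.2 to 73.9 CPM with DMXAA (0.70 ± 0.157). The groups did not overlap for *Stat2*, but it did not pass the adjustment (adjusted p = 0.174). *Stat2* was called without WT DMXAA replicate 3 (0.81 ± 0.142, adjusted p = 0.0107).

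Of the sensors of foreign RNA, *Ddx60*, a helicase that aids RIG-I, is given in every library. In WT vehicle replicates it was at 0.159, 0.878, 0.604 and 0.401 CPM, and in WT DMXAA replicates at 17.6, 8.24, 9.09 and 8.02 CPM. Mice without the receptor had 0.517, 0.623, 0.484 and 0.357 CPM with vehicle and 0, 0.326, 0.266 and 0 CPM with DMXAA. The WT rise was 4.33 ± 0.443 on the log2 scale (adjusted p = 0.000226); in *Ifnar1*-/- mice the DMXAA libraries all lay under the vehicle libraries, a difference of -1.60 that did not pass the adjustment (edgeR adjusted p = 0.705).

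*Eif2ak2* encodes PKR, the kinase that halts translation on double-stranded RNA. It was at 1.51, 1.88, 2.05 and 1.80 CPM in WT vehicle and 24.9, 10.3, 9.46 and 8.54 CPM in WT DMXAA libraries (2.86 ± 0.338, adjusted p = 0.000844). *Ifih1*, the sensor MDA5, was at 0.188 to 0.665 CPM with vehicle and 1.09 to 3.69 CPM with DMXAA (2.36 ± 0.423, adjusted p = 0.0397). Without the receptor *Eif2ak2* was at 0.947 to 2.40 CPM and *Ifih1* at 0.234 to 0.624 CPM. *Ddx58* (RIG-I) had a log2 fold change of 0.98 in WT that missed the threshold (adjusted p = 0.619), and *Adar*, an RNA editor of the same list, one of 0.09. The value of *Adar* was -0.19 without WT DMXAA replicate 3 (adjusted p = 0.372).

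Antiviral effectors were near 0 in vehicle libraries. *Oasl2*, an OAS-like protein, was at 0, 0.125, 0.423 and 0 CPM in WT vehicle replicates and at 36.0, 9.13, 4.30 and 7.45 CPM in WT DMXAA replicates, from 9 and 884 UMIs. Its level in *Ifnar1*-/- libraries was at most 0.178 CPM. The log2 fold change in WT was 6.497 ± 0.794 (adjusted p = 0.00104), the largest rise among the 15 genes.

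*Ifit1*, which binds viral RNA caps, was at 0.477, 0.565, 0.302 and 0.468 CPM with vehicle and 21.1, 8.90, 2.40 and 3.96 CPM with DMXAA in WT mice (4.30 ± 0.624, adjusted p = 0.00700). *Oas2*, which makes the activator of RNase L, was at 0.159, 0.690, 0.302 and 0.267 CPM and 2.86, 1.54, 1.47 and 1.88 CPM (2.38 ± 0.355, adjusted p = 0.00846). *Trim34a* rested on 3 UMIs in vehicle and 96 in DMXAA libraries of WT mice, or 27.5 times the level, with an exact 95% interval of 9.14 to 136 for counting error (edgeR adjusted p = 0.00700). *Ifit1*, *Trim34a* and *Ifi203* have near-identical relatives in their clusters, and counting may split reads among them.

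*Xaf1*, a proapoptotic ISG, had the smallest adjusted p. It was at 1.03, 1.13, 0.967 and 0.735 CPM in WT vehicle and at 10.4, 7.71, 5.53 and 6.36 CPM in WT DMXAA libraries, with 0.431 to 1.22 CPM in *Ifnar1*-/- libraries (2.94 ± 0.276, adjusted p = 0.00013). *Rnf213*, a large E3 ubiquitin ligase, was at 3.42, 3.83, 2.48 and 3.68 CPM and 28.6, 9.31, 9.83 and 6.88 CPM (2.02 ± 0.369, adjusted p = 0.0461). *Ifi203*, a nuclear DNA-binding protein of the PYHIN family, was at 8.10 to 9.54 CPM and 13.6 to 24.9 CPM (1.01 ± 0.165, adjusted p = 0.0189).

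Of the MHC class I genes *Tapbp*, the chaperone that holds the class I molecule at the peptide transporter, was called. It was at 3.82, 4.58, 3.20 and 4.41 CPM with vehicle and at 8.29, 6.82, 7.002 and 7.40 CPM with DMXAA in WT mice (0.88 ± 0.157, adjusted p = 0.0397). The heavy chain *H2-K1* was at 0.398 to 0.802 CPM and 1.46 to 1.84 CPM, with no overlap and a log2 fold change of 1.39 that missed the threshold (adjusted p = 0.208). *Tap1*, a subunit of the transporter, had 1.51 (adjusted p = 0.362), and *B2m*, the light chain, 0.28. Without WT DMXAA replicate 3, 3 of 10 class I genes tested were called, all higher, beside 0.403% of all genes called higher: *Tapbp*, *H2-D1* (1.06) and *H2-T23* (1.69).

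*Lgals3bp*, a secreted galectin ligand, went from a mean of 0.470 to 2.32 CPM (2.25 ± 0.378, adjusted p = 0.0229), and *Gm20559*, a processed transcript of unknown function, from 0.360 to 3.33 CPM (3.19 ± 0.515, adjusted p = 0.0188). *Ptn* encodes pleiotrophin, a growth factor. It was at 93.0, 97.7, 83.7 and 79.7 CPM in WT vehicle and at 53.9, 54.7, 63.5 and 56.0 CPM in WT DMXAA libraries (-0.63 ± 0.113, adjusted p = 0.0397). In *Ifnar1*-/- mice it was at 104, 104, 102 and 80.5 CPM with vehicle and 76.2, 82.7, 58.1 and 71.4 CPM with DMXAA, where only the lowest vehicle and the highest DMXAA library overlapped (-0.44 ± 0.113, edgeR adjusted p = 0.705). The astrocyte markers moved with it in part, as their sums above show, and their part in it was not tested. *Ptn* was called in 7 of 24 alternative fits.

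**Figure D2:**
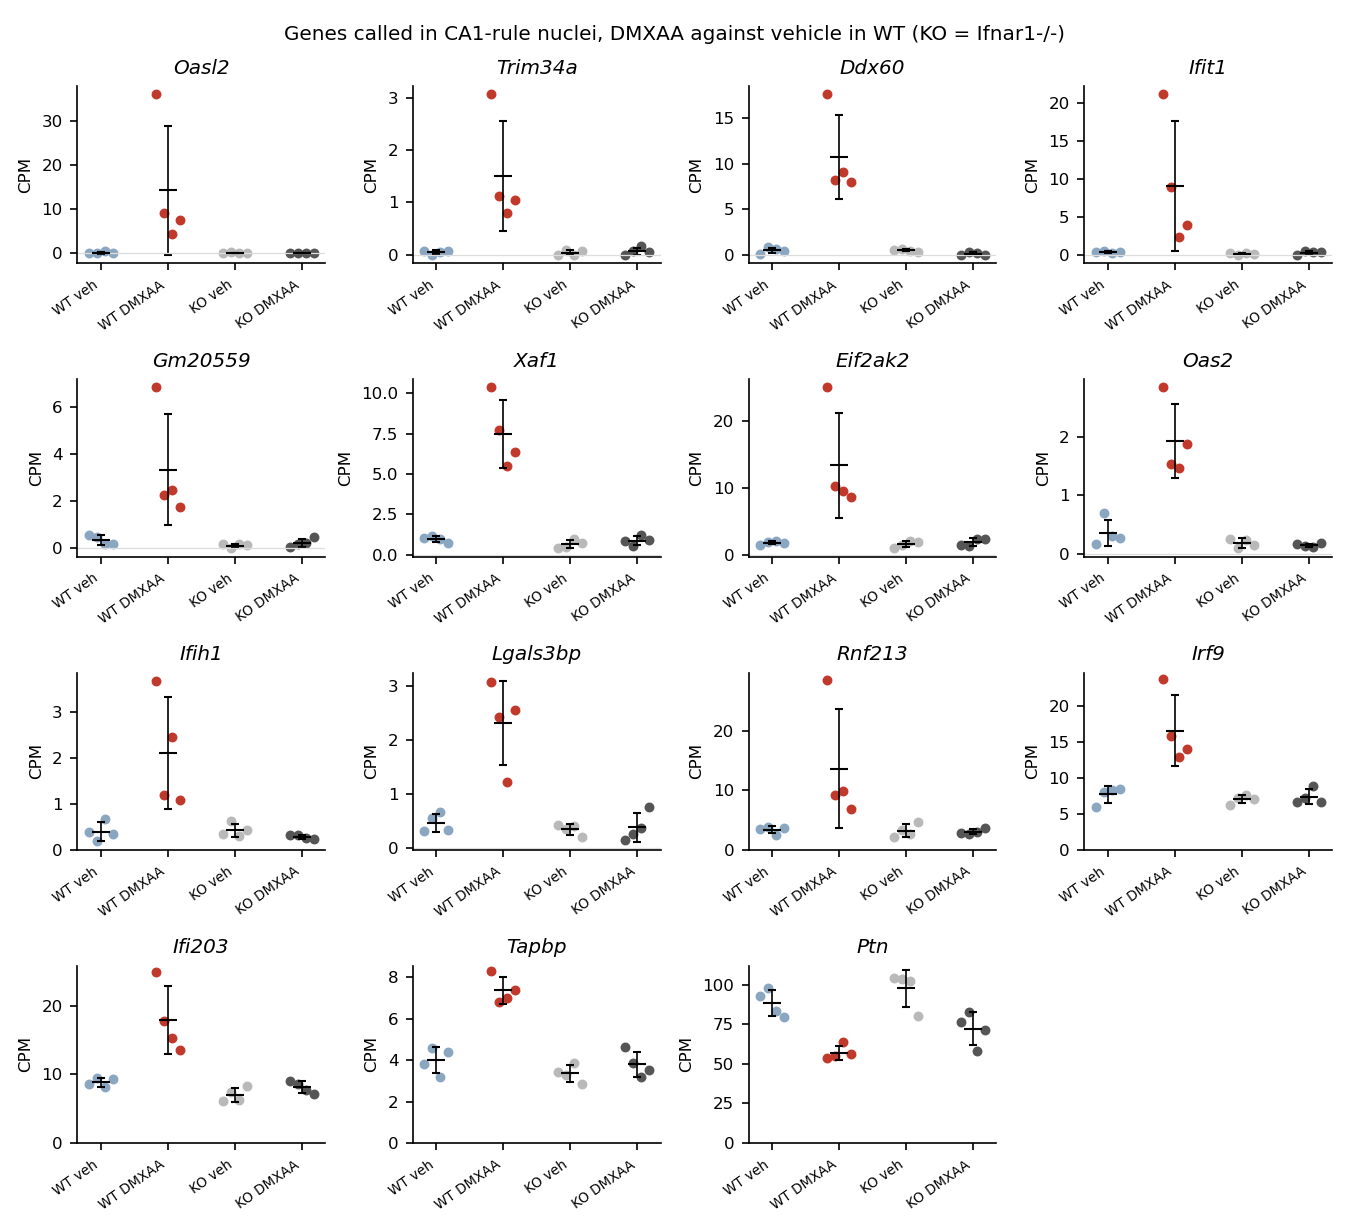
CPM in CA1-rule nuclei (vertical axis, its own scale for each gene) of 15 genes called in WT mice, for the 4 libraries of each of the 4 groups, with the mean and SD. *Irf9* lies at 12.8 to 23.8 CPM in WT DMXAA and at 5.97 to 8.93 CPM in the 12 other libraries, and *Ptn* runs the other way.

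In WT DMXAA libraries replicate 1 had the highest level of all 15 risen genes. The core list of 24 ISGs summed to 325, 138, 92.7 and 121 CPM in WT DMXAA replicates 1 to 4, against 48.5 to 53.5 CPM in WT vehicle and 32.2 to 43.0 CPM in *Ifnar1*-/- libraries. Fewer transcribing nuclei and less RNA per nucleus cannot be told apart in such sums. Microglia, which respond to interferon themselves, had *Irf9* at 35.1 CPM in WT vehicle and 92.9 CPM in WT DMXAA libraries, and the sum of their markers in CA1-rule nuclei was 94.2, 101, 26.3 and 74.6 CPM in WT DMXAA replicates 1 to 4. Replicates 1, 2 and 4 were thus above all WT vehicle libraries (53.9 to 66.3 CPM), and replicate 3 under them. No microglial marker was called by edgeR, but with replicate 3 left out 3 of the 6 tested were higher at an unadjusted p under 0.05 and none lower (median 0.46, against 1 of 6 and 0.18 with it). Over all genes 9.29% were higher at that p without replicate 3 and 2.79% with it. The microglial markers thus moved with the ISGs in 3 of the 4 libraries, and their part in the rise was not tested. With *Siglech* at 0.393 CPM in CA1-rule nuclei against 943 CPM in microglia, their defining markers were near 0 beside this rise, and replicate 3, with the lowest sum of microglial markers, had a core ISG sum of 92.7 CPM, above all vehicle libraries.

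The 7 ISG lists together hold 78 genes, of which 36 passed the filter on low counts and were tested. With DMXAA in WT mice 12 of the 36 rose and none fell, and all 36 fold changes were above 0. The median log2 fold change was 1.07, against 0.02 over all genes. The filter can pass a gene through 1 group alone, and some ISGs near 0 elsewhere, such as *Oasl2*, were tested only because WT DMXAA libraries held them. Signs, medians and counts of the 36 in WT mice, and in the difference between genotypes, are thus set in part by the filter. Libraries did not overlap for 22 of the 36, all higher, against 1.48% of all genes higher and 1.32% lower without overlap. By role, 3 of 7 sensors rose (median 0.98), 2 of 4 transcription factors and feedback genes (0.90), 3 of 8 antiviral effectors (2.14), 0 of 3 genes of ISG15 conjugation (1.10), 1 of 5 ADP-ribosylation genes with *Rnf213* (0.94) and 3 of 8 nuclear and other ISGs (1.05). Of the 9 MHC class I genes 1 rose (median 0.82). An unadjusted p under 0.05 was reached by 29 of the 36 ISGs, all higher, beside 2.79% of all genes higher at that p. DESeq2 called 16 of the 36, beside 40 of all genes (0.248%).

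Among the members that missed the threshold were well known ISGs. *Bst2* (tetherin) was at 0.0669 to 0.690 CPM with vehicle and 1.11 to 5.09 CPM with DMXAA (2.94 ± 0.546, adjusted p = 0.0517). *Isg15*, the ubiquitin-like modifier, was at 0.0795, 0.627, 0.363 and 0.668 CPM with vehicle and 5.16, 2.02, 0.307 and 2.40 CPM with DMXAA, where replicate 3 lay within the vehicle range (2.44 ± 0.649, adjusted p = 0.372). *Trim25*, the ligase of RIG-I, had 1.89 ± 0.424 (adjusted p = 0.174) and *Parp9* 1.03 ± 0.216 (adjusted p = 0.129). Without WT DMXAA replicate 3, 22 of 40 ISGs tested rose and none fell, with *Irf7* (4.78), *Bst2* (3.18) and *Isg15* (2.79) among them (0.403% of all genes were called higher there).

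The 42 ISGs that were not tested were not silent. Of these 38 were matched in the files and 37 had a count, and their UMIs summed to 247 in WT vehicle, 1068 in WT DMXAA, 183 in *Ifnar1*-/- vehicle and 217 in *Ifnar1*-/- DMXAA libraries. Per library this was 3.97 to 5.68, 9.47 to 37.6, 2.25 to 3.82 and 2.58 to 3.37 CPM, so every WT DMXAA library was above all others. Named after their values were seen, *Irf7*, the amplifying transcription factor, had 5 and 123 UMIs with vehicle and DMXAA in WT mice, *Ifitm3* 4 and 55, *Iigp1* 6 and 63, *Rsad2* (viperin) 4 and 27, and *Ifi44* 0 and 25. *Tmem173*, which encodes STING itself, had 6 and 6.

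The share of nuclei with ISG RNA was read at equal depth. Each nucleus was scaled to 3000 UMIs and the chance of at least 1 UMI of the 24 core ISGs was averaged, with 72 of 14336 shallower nuclei left out. This share was 14.7, 14.04, 14.6 and 13.9% in WT vehicle replicates 1 to 4 and 56.3, 32.8, 24.2 and 29.97% in WT DMXAA replicates. It was 9.21 to 10.8% in *Ifnar1*-/- vehicle and 10.4 to 12.2% in *Ifnar1*-/- DMXAA libraries. Unthinned, the group means were 48.6, 75.6, 47.1 and 49.4%.

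Every WT DMXAA library was above all 12 others, and the lowest of them, replicate 3, was the library that stood apart. At least 3 core ISG UMIs were expected in 11.95, 1.84, 0.700 and 1.505% of nuclei in WT DMXAA libraries, against 0.0610 to 0.163% in WT vehicle libraries. The vehicle share is the level read without the drug and is not evidence that those nuclei expressed the response.

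**Figure D3:**
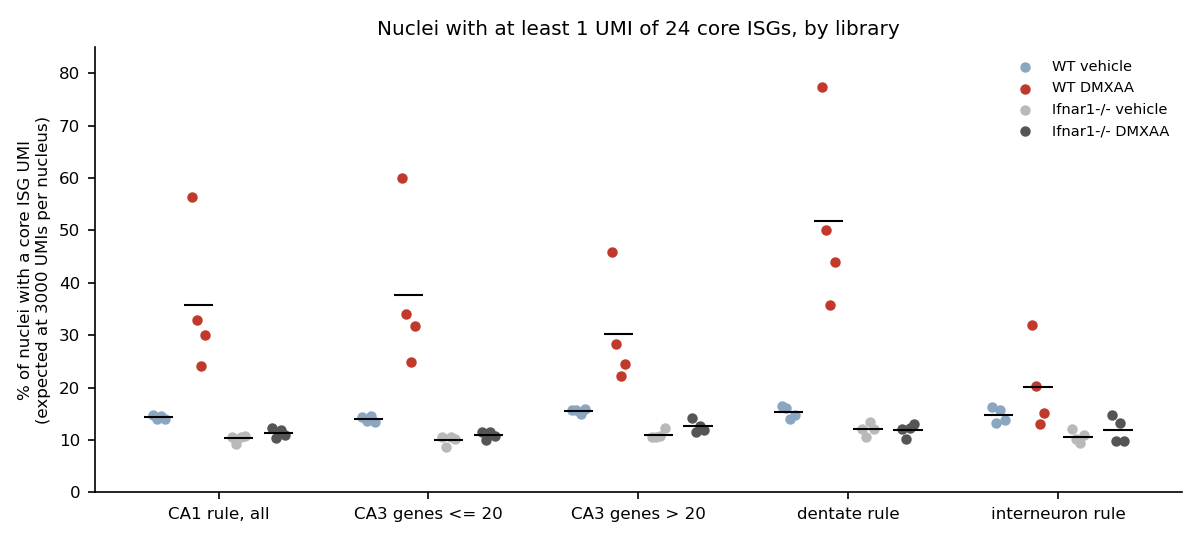
Share of nuclei (percent, vertical axis) expected to hold at least 1 UMI of 24 core ISGs at 3000 UMIs, for 5 sets of nuclei, each point 1 library and each line a group mean, by genotype and treatment. In CA1-rule nuclei WT DMXAA libraries lie at 24.2 to 56.3% and the other groups at 9.21 to 14.7%, and the same 4 libraries reach 35.7 to 77.5% in dentate nuclei.

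The risen genes, called in the sum of both kinds of nuclei that the rule had taken, were then read in each kind. In the nuclei with at most 20 UMIs of the CA3 list, 13 of 15197 genes were called in WT mice (0.0855%), all higher. Of the 15 risen genes 14 were tested there and 11 called, and *Bst2* and *Samd9l* were called besides. *Ddx60* went from 0.377 to 12.505 CPM in these nuclei (4.94 ± 0.408) and from 0.862 to 7.33 CPM in the nuclei over 20 (2.998 ± 0.542, adjusted p = 0.0940). In the latter 10 of the 15 genes were tested, and all 10 had an unadjusted p under 0.05, beside 589 of all 13198 genes. There 1 gene, *Xaf1*, was called (0.00758% of 13198).

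*Ifi203* differed in its source. Its level in WT vehicle libraries was 30.2 CPM in the nuclei over 20 and 0.769 CPM in the others, so most of its RNA in the whole set came from the former. In the nuclei at or under 20 it went to 3.03 CPM and was not called (1.90 ± 0.533, adjusted p = 0.502). *Oas2* (adjusted p = 0.106), *Rnf213* (0.0743) and *Ptn* (-0.59, adjusted p = 0.106) also missed the threshold in that set.

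The difference of the DMXAA response between the 2 kinds was itself tested in a fit with library as a block. It was positive (a larger rise at or under 20) for 13 of 14 risen genes, with a median of 0.85 against 0.00 over all genes. Of 14974 genes 1 was called (0.00668%), *Rbms3*, an RNA-binding protein (0.55 ± 0.0813, adjusted p = 0.00856). None of the 14 was called, and *Ddx60* had a difference of 1.97 ± 0.537 (adjusted p = 0.543). This comparison was added after the marker check. The risen genes were called in the sum of both kinds, in which 10928 of 14336 nuclei were at or under 20. Their signs and counts in the 2 kinds are thus a description and no independent evidence. The comparisons with other nuclei below also use genes chosen in CA1-rule nuclei.

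Dentate granule nuclei, chosen by *Prox1* and further markers (12839 nuclei), were compared in the same way. There 22 of 14934 genes were called (0.147%), all higher, with 11 of the 12 risen CA1 genes that were tested. *Irf9* went from 9.22 to 37.3 CPM (2.01 ± 0.244). The difference had both signs over the 15 risen genes: 6 had the larger value in CA1-rule nuclei, with *Trim34a* (2.72) and *Oasl2* (1.95) among them and neither called, and 9 in dentate nuclei (median -0.53). The test of the difference called 3 of 16538 genes (0.0181%), all with a smaller rise in CA1-rule nuclei, *Irf9* (-0.88 ± 0.1497, adjusted p = 0.0325) and *Ifit1* (-3.46 ± 0.521, adjusted p = 0.0117) among them. The core ISG share in WT DMXAA libraries was 77.5, 50.1, 35.7 and 43.9% in dentate nuclei, above that of CA1-rule nuclei in each of the 4. The difference was called for 6 genes without WT DMXAA replicate 3. With at least 5 markers, or with at most 20 UMIs of the CA3 list, none of the 3 differences was called.

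Interneuron nuclei (4721) gave fewer calls. By edgeR no gene was called in them among 13639, although 6 of 7 risen genes tested had an unadjusted p under 0.05, beside 412 of all genes. The difference was called for 2 of 16278 genes (0.0123%), both with the larger rise in CA1-rule nuclei, *Eif2ak2* (1.89 ± 0.273, adjusted p = 0.0145) among them. In a set chosen by the CA3 list with few CA1 markers (9290 nuclei), none of 16920 differences was called by edgeR, and 804 had an unadjusted p under 0.05. That set had 1264 CPM of *Tshz2*, a gene of the subiculum, and is named by its rule and not as CA3.

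**Figure D4:**
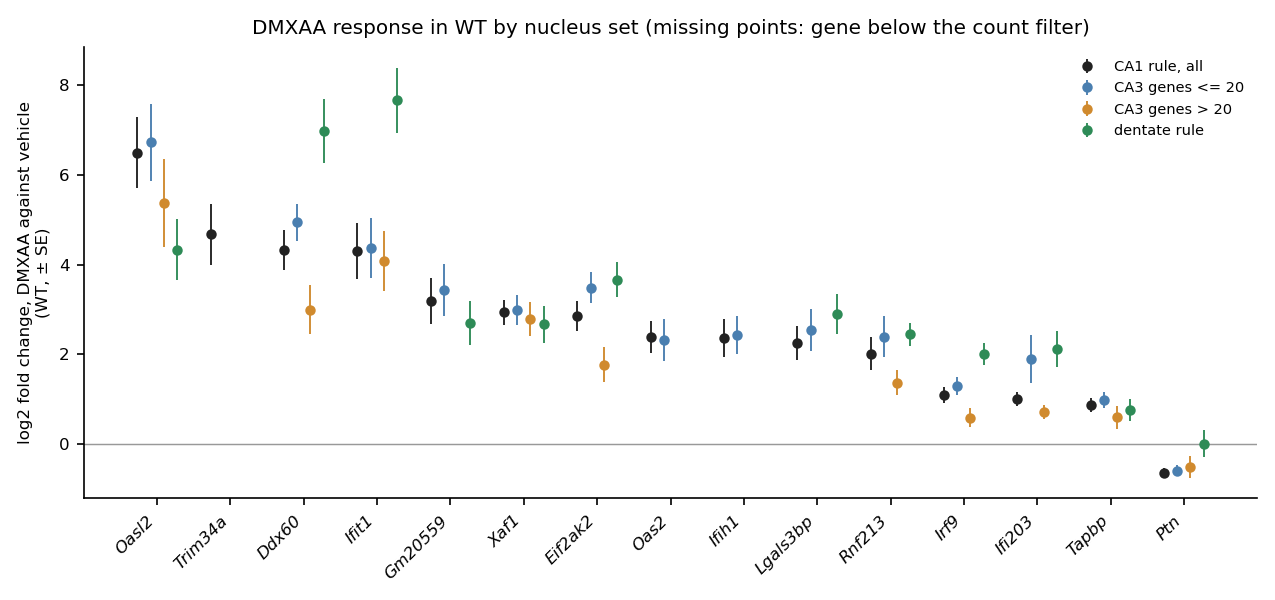
Log2 fold change of WT DMXAA against WT vehicle (vertical axis, points with SE bars) for 15 genes called in CA1-rule nuclei, in all CA1-rule nuclei, in those at or under 20 and those over 20 UMIs of the CA3 list, and in dentate nuclei. *Irf9* lies at 1.10 in all CA1-rule nuclei, 1.30 and 0.59 in the 2 kinds, and 2.01 in dentate nuclei.

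In *Ifnar1*-/- mice DMXAA was followed by no called gene in CA1-rule nuclei (0% of 16121 in either direction, edgeR quasi-likelihood test). With WT DMXAA replicate 3 left out of the shared fit, 11 were called, 2 higher (0.0122% of 16364) and 9 lower (0.055%), none of them an ISG. An unadjusted p under 0.05 was reached by 994 genes, or 3183 without WT DMXAA replicate 3, and DESeq2 called 3, all lower (*9330185C12Rik*, *C130073E24Rik* and *Glra2*, a glycine receptor subunit). The noncoding *9330185C12Rik* was at 2.84, 6.86, 8.78 and 9.70 CPM with vehicle and 2.71, 1.57, 1.28 and 1.41 CPM with DMXAA in these mice, without overlap. Of the 36 ISGs 2 were higher and 1 lower at an unadjusted p under 0.05, and their median log2 fold change was 0.04. Libraries did not overlap for 5.08% of all genes higher and 3.9% lower, so the absence of calls is not an absence of differences between these libraries.

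The difference between the genotypes' responses was called for 1 gene, *Ddx60* (5.93 ± 0.853, adjusted p = 0.0439; 0.0062% of 16121 genes). *Xaf1* had a difference of 2.53 (adjusted p = 0.13), *Eif2ak2* 2.62 (0.19), *Irf9* 1.04 (0.53) and *Ifit1* 3.39 (0.713). The difference was above 0 for 34 of the 36 ISGs, with a median of 0.999 against 0.00 over all genes. For 19 of them the unadjusted p was under 0.05, beside 1100 of all 16121 genes. With DESeq2 there were 13 calls, *Ddx60*, *Xaf1* and *Eif2ak2* among them. The call for *Ddx60* was made in 11 of 24 alternative fits, in which its value ranged from 5.25 to 6.58, and over 24 fits in WT mice *Ddx60*, *Xaf1* and *Eif2ak2* were called in all. Other calls in WT mice were lost more often: *Rnf213* was called in 9 of 24, *Tapbp* in 8 of 24 and *Ifih1* in 7 of the 22 in which it was tested. Without WT DMXAA replicate 3 the difference between genotypes was called for 4 genes, 3 of them above 0 (0.0183% of 16364) and 1 below (0.00611%), with *Ddx60* and *Xaf1* (2.65 ± 0.442, adjusted p = 0.0415) among the former.

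The genes that act before the ISGs gave no call with DMXAA in WT mice, by edgeR or DESeq2, and none had an unadjusted p under 0.05. With WT DMXAA replicate 3 left out none was called by edgeR and 2 had one. The 7 receptor and kinase genes had a median of 0.04, and *Jak1* was at 73.0 to 91.9 CPM with vehicle and 87.7 to 102 CPM with DMXAA (0.16 ± 0.0866, adjusted p = 0.9999). Of the 4 tested genes of the cGAS–STING pathway *Tbk1*, its kinase, was at 50.6 to 54.1 and 42.6 to 54.7 CPM (-0.06 ± 0.0997).

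*Mef2c*, the transcription factor whose network the study followed in ENs, was not called in CA1-rule nuclei. The study tested single nuclei and reported *Mef2c* among the top genes lowered by DMXAA in ENs of WT mice. It also reported less MEF2C staining in CA1 neurons of WT mice given DMXAA, and no difference in *Ifnar1*-/- mice. The values here are RNA of another set of nuclei, tested between libraries, and repeat neither measurement. *Mef2c* was at 128, 54.6, 99.95 and 111 CPM in WT vehicle and at 88.0, 71.0, 71.7 and 51.4 CPM in WT DMXAA libraries. Its levels without the receptor were 108, 63.9, 80.9 and 79.0 CPM with vehicle and 112, 88.6, 54.9 and 36.3 CPM with DMXAA. The groups overlapped in both genotypes. The WT log2 fold change was -0.48 ± 0.299 (edgeR adjusted p = 0.9999) and lay between -0.76 and -0.18 in the alternatives. In the marker check *Mef2c* had 373 CPM in nuclei with 3 markers, outside the rule, 106 CPM with 4 and 60.6 CPM with 7. For *Dpp10*, one of its targets, these values were 4478, 1612 and 318 CPM. The part of nuclei near the edge of the rule in the levels by library was not tested.

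The 4 target genes of MEF2C that the study names were not called either, by edgeR or DESeq2, and none of the 4 had an unadjusted p under 0.05. *Rgs6* was at 58.9 to 114 CPM with vehicle and 58.8 to 116 CPM with DMXAA in WT mice (-0.30 ± 0.227), *Dpp10*, a potassium channel partner, at 356 to 978 and 485 to 1004 CPM (-0.28 ± 0.270), *Gria4*, an AMPA receptor subunit, at 226 to 265 and 229 to 352 CPM (0.10 ± 0.126), and *Pdzrn3* at 8.60 to 34.8 and 5.11 to 40.7 CPM (-0.40 ± 0.545). For *Mef2d*, *Rgs6*, *Dpp10* and *Gria4* replicate 3 was the highest WT DMXAA library and lay apart from the other 3. Without it the log2 fold changes were -0.60 ± 0.175 for *Rgs6* (adjusted p = 0.109), -0.59 ± 0.226 for *Dpp10* (0.184), -0.07 ± 0.0843 for *Gria4* (0.691) and -1.05 ± 0.502 for *Pdzrn3* (0.293), so that *Gria4* changed sign and the other 3 lay further below 0. The unadjusted p of *Rgs6* and *Dpp10* was then under 0.05. None of the 4 passed the adjustment, and *Mef2c* was at -0.49. Of 226 tested MEF2C targets changed in ENs of *Cgas*-deleted mice, none was called (13 higher and 3 lower at an unadjusted p under 0.05, DESeq2 0), with a median of 0.05. In *Ifnar1*-/- mice none of the 226 was called with DMXAA by either tool, 1 was higher and 18 were lower at an unadjusted p under 0.05, and the median was -0.16. Of 107 targets that the study chose on these same libraries, and which are therefore no independent evidence, none was called by either tool (4 higher and 5 lower at an unadjusted p under 0.05, median 0.01). In *Ifnar1*-/- mice none of the 107 was higher and 9 were lower at that p, with a median of -0.18. Over all genes 2.79% were higher and 2.15% lower at that p in WT mice, and 2.97% and 3.19% in *Ifnar1*-/- mice. In the longest of 5 equal classes of genes by span, the median with DMXAA was 0.06 in WT and -0.15 in *Ifnar1*-/- mice. The target lists were not compared with genes of like length, so nothing particular to them is read from these shifts. They were taken as gene names, without the direction of change found by the study. The study reports targets moved in both directions by *Cgas* deletion. Medians and counts over these lists, here and below, thus cannot show whether the network was raised or lowered.

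These target lists depended on WT DMXAA replicate 3. Without it 4 of 227 targets from *Cgas*-deleted mice were called lower and none higher, beside 0.361% of all genes called lower, with *Hip1r*, *Syn3* and *Kcnh5* among them. At an unadjusted p under 0.05, 59 were lower and 8 higher, beside 7.93% and 9.29% of all genes, and the median went from 0.05 to -0.13. Of the 107 targets chosen on these libraries 5 were called lower and none higher, 45 were lower and 5 higher at an unadjusted p under 0.05, and the median went from 0.01 to -0.20.

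Members of these lists lay lower more often than higher also in *Ifnar1*-/- mice in that fit. Of the 227 targets 72 were lower and 3 higher at an unadjusted p under 0.05, beside 9.21% and 10.2% of all genes, with a median of -0.16 and 2 called, *Syn3* and *Elmo1*, both lower. Of the 107 targets 44 were lower and 4 higher, with a median of -0.18 and the same 2 genes called. The difference between the genotypes' responses was called for no target of either list by edgeR, and the medians were 0.03 and -0.02. At an unadjusted p under 0.05, 15 and 3 targets were above 0 and 7 and 9 below 0, beside 1248 of all 16364 genes in either direction. The target lists were not compared with genes of like length in this fit either.

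Genes of neuronal function gave no call with DMXAA in WT mice. None was called, by edgeR or by DESeq2, among 16 AMPA and NMDA receptor genes, 12 kainate and metabotropic glutamate receptor genes, 14 GABA receptor genes, 19 potassium and HCN channel genes, 13 sodium and calcium channel genes, 16 plasticity kinases and scaffolds and 27 synaptic adhesion genes. The same held for 19 immediate early genes (median -0.27), 17 clock genes, 9 glucocorticoid targets and 11 genes of protein folding and stress. At an unadjusted p under 0.05, 3 GABA receptor genes, 3 clock genes and 1 gene each of the immediate early, kainate and metabotropic, potassium and sodium and calcium lists were lower, and 2 clock genes and 1 glucocorticoid target were higher. Over all genes 2.15% were lower and 2.79% higher at that p. Without WT DMXAA replicate 3, 2 of these genes were called by edgeR, both lower: the clock genes *Arntl* (-0.66 ± 0.102, adjusted p = 0.00318) and *Cry2* (-0.39 ± 0.0714, adjusted p = 0.0164). The unadjusted counts moved more. In that fit 7 of 13 sodium and calcium channel genes, 6 of 27 adhesion genes, 5 of 14 GABA receptor genes, 4 of 19 potassium and HCN channel genes, 3 of 16 AMPA and NMDA receptor genes, 2 of 12 kainate and metabotropic receptor genes and 1 of 16 plasticity genes were lower at an unadjusted p under 0.05, beside 7.93% of all genes, and 1 AMPA or NMDA receptor gene was higher. With DMXAA in *Ifnar1*-/- mice the same fit gave 5, 2, 7, 4, 6, 2 and 4 lower in these lists, in the same order, and 2 AMPA or NMDA receptor genes higher. Over all genes 9.21% were lower and 10.2% higher at that p in *Ifnar1*-/- mice, and 9.29% were higher in WT mice. These lists were not compared with genes of like length.

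Markers of place within CA1 were also read, from lists that the rule had not used. *Ndst4*, of deep CA1, was at 219 to 269 CPM in WT vehicle and 164 to 212 CPM in WT DMXAA libraries, without overlap (-0.46 ± 0.121, adjusted p = 0.371). *Htr2c*, a serotonin receptor of ventral CA1, was at 49.2 to 67.1 and 86.2 to 105 CPM, also without overlap (0.68 ± 0.197, adjusted p = 0.497). Neither passed the adjustment. *Ndst4* was called lower without WT DMXAA replicate 3 (-0.53 ± 0.114, adjusted p = 0.0338), and *Htr2c* was not called (0.72 ± 0.197, adjusted p = 0.0936). *Calb1*, of superficial CA1, was at 27.4 to 36.7 and 25.3 to 36.5 CPM. The share of CA1-rule nuclei among nuclei within the limits was 10.3% ± 2.15 in WT vehicle and 12.004% ± 0.970 in WT DMXAA libraries, and 10.3% ± 1.42 and 11.5% ± 1.22 in *Ifnar1*-/- libraries (exact permutation p = 0.229 in each, where 4 against 4 libraries cannot go below 0.0286).

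Between the vehicle groups, *Ifnar1*-/- against WT, 7891 genes were called, 3764 higher (23.3%) and 4127 lower (25.6%), with a median log2 fold change of -0.07. With WT DMXAA replicate 3 left out of the shared fit, 9508 were called, 4411 higher and 5097 lower. With all 16 libraries, scaled by size factors in place of TMM, the calls were 4059 higher and 3820 lower, so the balance of directions depended on the scaling. The called genes differed in length: the median genomic span was 94.2 kb for the higher, 9.60 kb for the lower and 24.9 kb for all tested genes. From the shortest to the longest of 5 equal classes of genes by span, the median log2 fold change was -0.78, -0.35, -0.07, 0.18 and 0.53.

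WT DMXAA replicate 3, which carries *Ifnar1* at a WT level and the rise of *Ddx60*, lay with the *Ifnar1*-/- libraries for most of these genes. It was the highest WT library for 89.3% of the 3764 higher genes and the lowest for 87.2% of the 4127 lower genes, where each of the 7 other WT libraries was so for at most 2.86%. It reached the range of the *Ifnar1*-/- vehicle libraries for 63.5% of the higher and 72.5% of the lower genes, against at most 5.21% for each other WT library. *Taco1*, a mitochondrial translation activator and among the largest rises (2.97), is an example: it was at 8.08 to 13.2 CPM in 7 WT libraries, at 55.8 CPM in WT DMXAA replicate 3 and at 43.8 to 166 CPM in *Ifnar1*-/- libraries. The noncoding *B230217J21Rik*, among the largest falls (-2.63 ± 0.474), was at 4.38 to 8.62 CPM in 7 WT libraries, at 0.860 CPM in WT DMXAA replicate 3 and at 0.445 to 1.97 CPM in *Ifnar1*-/- libraries. *Gabbr2*, a GABA-B receptor subunit, was at 335 to 377 CPM in 7 WT libraries, 697 CPM in replicate 3 and 561 to 834 CPM in *Ifnar1*-/- libraries. The part of genotype, age and library make-up in these calls was not tested.

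**Figure D5:**
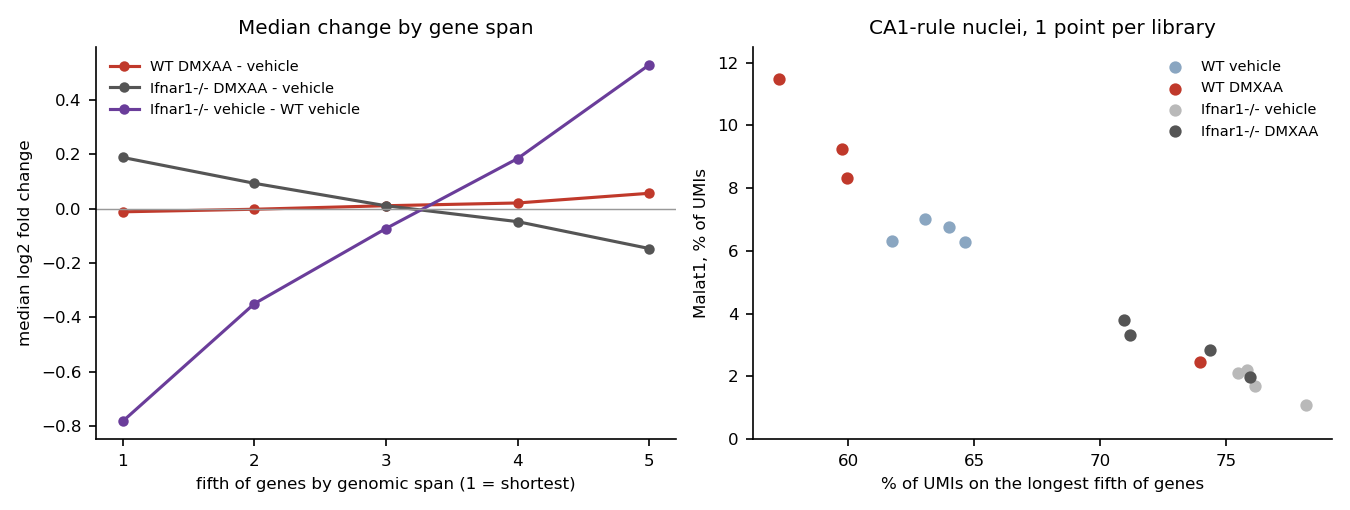
Left, median log2 fold change (vertical axis) of tested genes by class of genomic span (horizontal axis, 5 equal classes, shortest to longest) for DMXAA in WT, DMXAA in *Ifnar1*-/- and *Ifnar1*-/- vehicle against WT vehicle; right, *Malat1* share against long-gene share of CA1 UMIs (percent) in each library. The genotype line runs from -0.78 to 0.53, and WT DMXAA replicate 3 (2.47% and 73.9%) lies among the *Ifnar1*-/- libraries.

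A smaller set of genes kept all 8 WT libraries, replicate 3 included, apart from all 8 *Ifnar1*-/- libraries: 167 of the 3764 higher (4.44%) and 349 of the 4127 lower (8.46%). *Ifnar1* is one of them. Chosen after their values were seen, *Tmem40* was at 0 to 0.239 CPM in WT, 0.0614 CPM in replicate 3, and 1.29 to 2.67 CPM in *Ifnar1*-/- libraries (4.05 ± 0.454, adjusted p = 0.00032). *Olfr1256* was at 1.98 to 3.58 CPM in WT and 0.160 to 0.980 CPM in *Ifnar1*-/- libraries (-1.94 ± 0.299). *Tcf7l1*, a transcription factor of the Wnt pathway, was at 0.477 to 1.72 and 1.97 to 4.99 CPM (2.05 ± 0.338), and *Kcnk3*, the leak channel TASK-1, at 3.68 to 8.35 and 8.60 to 11.0 CPM (1.09 ± 0.182).

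Lists of synapse and membrane genes were read between the vehicle groups beside the 23.3% of all genes that were called higher. Of 16 AMPA and NMDA receptor genes 10 were higher and 1 lower. *Gria1*, the AMPA receptor subunit of CA1 plasticity, was at 2665 to 3119 CPM in WT vehicle and 5313 to 6565 CPM in *Ifnar1*-/- vehicle libraries (0.97 ± 0.202), and at 5002 CPM in WT DMXAA replicate 3 against 2347 to 2629 CPM in the others of that group. *Cnih2*, an AMPA receptor chaperone, was lower (-1.14 ± 0.251).

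Of 19 potassium and HCN channel genes 14 were higher and none lower, with *Kcnd3* (1.27) and *Kcnma1* (1.03) among them. Of 12 kainate and metabotropic receptor genes 10 were higher (*Grik3* 1.24, *Grm4* 1.03), of 13 sodium and calcium channel genes 10 (*Cacna1c* 1.15), of 16 plasticity genes 13 (*Shank2* 1.06), of 27 adhesion genes 17 (*Lrfn2* 1.15) and of 14 GABA receptor genes 8 (*Gabbr2* 0.96). In each of the plasticity, adhesion and GABA lists 1 gene was lower. Of the 226 MEF2C targets 181 were higher and 4 lower (median 0.63). None of these lists was compared with genes of like length, so nothing particular to them is read from the counts.

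Genes of the early response and of stress were read beside the 25.6% of all genes that were called lower. Of 19 immediate early genes 7 were lower, none higher and 12 not called, and *Jun* was at 4.58 to 7.86 CPM in WT vehicle and 1.29 to 3.99 CPM in *Ifnar1*-/- vehicle libraries (-1.25 ± 0.402). Of 11 stress genes 6 were lower and 5 not called, and *Atf4*, a stress transcription factor, was at 6.46 to 13.7 and 3.56 to 4.85 CPM (-1.09 ± 0.230). The medians of these lists were -0.80 and -0.64, and that of the shortest class of genes by span was -0.78. Neither list was compared with genes of like length, so nothing particular to them is read from the counts. *Malat1* was at 58604 and 20140 CPM on average (-1.54 ± 0.334, adjusted p = 0.00247).

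Of the 36 ISGs 1 was higher and 3 were lower in *Ifnar1*-/- vehicle libraries, with a median of -0.23 against -0.07 over all genes, where 23.3% of all genes were called higher and 25.6% lower. *Adar* was the higher one (0.74 ± 0.175, adjusted p = 0.00374), at 64.8 to 82.2 CPM in WT vehicle and 104 to 133 CPM in *Ifnar1*-/- vehicle libraries, with 116 CPM in WT DMXAA replicate 3. *Isg15* had 27 UMIs in WT vehicle and 1 in *Ifnar1*-/- vehicle libraries, a ratio of 31.0 with an exact 95% interval of 5.10 to 1268 for counting error, and *Ifi27* (-1.43 ± 0.350) and *Trim30a* were the other two. Of 9 MHC class I genes 3 were lower, with the immunoproteasome subunit *Psmb10* at -1.51, and of 4 genes of the cGAS–STING pathway 2 were lower (*Irf3* -1.30, *Tbk1* -0.39), counts too small to be read apart from those shares.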

How the data were processed

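Hippocampal nuclei of 16 male mice were profiled with Chromium 3′ v3.1 chemistry. The deposited matrices hold raw UMI counts per gene and barcode, which the authors made with Cell Ranger on mm10, reads on pre-mRNA included (3.1.0 in the submitters' processing notes, 6.1.2 in the file headers). They list 32285 genes. The study's limit of 4000 genes and its removal of doublets were not applied, and doublets were not called here. Groups came from the labels.

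Members, gene lists and comparisons were chosen with earlier results of these data known. UMIs of CA1-rule nuclei were summed per library, since cells are not replicates, and tested in R 4.3.3 with edgeR 4.0.16 (two-sided quasi-likelihood F test after filterByExpr and TMM scaling, 16 libraries in 4 groups, Benjamini-Hochberg over all genes). Thresholds were an adjusted p of 0.05 and an absolute log2 fold change of 0.1. Errors of fold changes are SEs from the F statistic. DESeq2 1.42.0 was an alternative. Differences between sets of nuclei used 32 sums with library as a block. Exact permutation tests over 70 arrangements used SciPy 1.17.1. Scripts were tested on simulated data. CPM of single genes by library or group were TMM-scaled, and those of marker checks and list sums were not. CPM are not scaled for length, so levels are not compared between genes. Intervals cover counting error only. Genes named by rule were the 10 largest called without overlap in each direction and contrast and the 5 largest for differences. Up to 4 called members of each list were added, or the 2 most counted where none was called. Other genes, such as *Stat2*, *Bst2*, *Trim25* and *Parp9*, were named with their values seen, also where this is not said beside them. Positions are from GENCODE M21 on GRCm38 and promoters from RefSeq. A few genes are not reported here.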

Additional observations from a re-analysis of the deposited data

Results flagged for a closer look

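In groups of 4 libraries, a highest or lowest library was marked where its gap to the next, over the range of the group, was above Dixon's 95% critical value. Of 120 groups 14 were marked, and chance marks about 1 in 20. No explanation was tested for any of them.

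WT DMXAA replicate 1 was the highest of its group for *Oasl2* (36.0 CPM), *Gm20559* (6.83), *Trim34a* (3.07), *Ddx60* (17.6), *Rnf213* (28.6) and *Eif2ak2* (24.9).

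WT DMXAA replicate 3 was the highest for the share of UMIs on the longest genes (73.9%), *Mef2d* (112 CPM, the others 52.7 to 56.2), *Rgs6* (116 CPM), *Dpp10* (1004 CPM) and *Gria4* (352 CPM).

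In 3 further groups a single library stood apart. WT vehicle replicate 2 had 13.5% of its nuclei within the limits in the CA1 rule, against 8.81 to 9.60% in the others. *Ifnar1*-/- vehicle replicate 2 had the lowest share with a core ISG UMI (9.21%), and *Ifnar1*-/- vehicle replicate 4 the lowest *Ptn* (80.5 CPM).

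Effects that differed by a test of the difference were the *Ddx60* response between genotypes (5.93) and, between CA1-rule and dentate nuclei, *Irf9* (-0.88) and *Ifit1* (-3.46). Between CA1-rule and interneuron nuclei *Eif2ak2* differed (1.89), and between the nuclei with at most and over 20 UMIs of the CA3 list *Rbms3* (0.55).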

How the results depend on the processing

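No paired analysis was possible because replicate numbers only name libraries within a group. The cause of the changes below was not tested. Called in WT mice were 16 genes, 40 with DESeq2, 9 with at least 5 markers, 6 with at most 4000 genes per nucleus and 9 with at most 5 UMIs of the CA3 list. Leaving out 1 library gave 5 (without WT vehicle replicate 3) to 125 (without WT DMXAA replicate 3). In *Ifnar1*-/- mice DESeq2 called 3, and 0 to 11 were called with 1 library left out. The difference between genotypes gave 2 with size factors, 13 with DESeq2, 2 without a filter, 0 with at most 4000 genes, 4 with at most 20 UMIs of the CA3 list and 0 to 4 with 1 library left out. The genotype contrast gave 5861 to 9508 with 1 library left out. Against dentate nuclei 116 differed without a filter, 0 with at least 5 markers, 0 with at most 20 UMIs of the CA3 list and 0 to 6 with 1 library left out. Against the set chosen by the CA3 list the counts were 21 without a filter and 0 to 2 with 1 library left out. The share of CA1-rule nuclei changed by 1.18 to 2.74 percentage points in WT and 0.513 to 1.74 in *Ifnar1*-/- mice with 1 library left out, and by -0.133 in *Ifnar1*-/- mice with at most 4000 genes. The core ISG share was 48.6, 75.6, 47.1 and 49.4% unthinned, and at 2000 UMIs 9.85% in WT vehicle, 26.8% in WT DMXAA, 7.002% in *Ifnar1*-/- vehicle and 7.79% in *Ifnar1*-/- DMXAA libraries. For genes that were called, 309 alternatives kept the call and 109 lost it, and *Mef2c* was not called in any of 24. The limits on the CA3 list and the comparisons within CA1-rule nuclei and with interneurons were chosen after seeing the data.

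Of 78 ISGs, 42 were not tested, of which 38 were in the files and had too few counts for the filter.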
